A study of Mus musculus with 2 samples.

Results

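The miR-30 family is a set of microRNA genes whose main mature products begin alike. It was examined in the gastrocnemius, the large calf muscle, of male B6CASTF1/J mice at 14 days of age, in the only group of the series, 2 biological replicates with 1 small RNA library each. B6CASTF1/J is the first-generation cross of C57BL/6 and CAST/EiJ mice. The 6 members, Mir30a, Mir30b, Mir30c-1, Mir30c-2, Mir30d and Mir30e, were found among the 2202 microRNA genes of the deposited tables by matching Ensembl identifiers to GENCODE vM21 symbols, a rule that sets no threshold on a measured value. Both replicates carry the same donor identifier and their labels mention several males, so a replicate may be a pool. The spreads given measure only how these 2 libraries vary, in part perhaps for technical reasons. The p-values concern these 2 libraries alone, most of them against counting error only. The series holds no other tissue, age, sex or treatment, so the question that the design addresses for the family is which members make up its counts in growing muscle and how far the replicates differ.

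A microRNA is cut from a hairpin transcript, and a mature strand from either arm can guide the silencing of messenger RNAs that pair with its seed, bases 2 to 8. The miR-30 family is encoded in mammalian genomes by pairs of neighbouring hairpins and is abundant in many tissues, kidney, heart and skeletal muscle among them. Its known targets include the autophagy gene Becn1 and, in the heart, the connective tissue growth factor gene. In each pair the hairpins lie on the same strand and can be carried by a common primary transcript.

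RefSeq sequences (build GRCm38.p6) were matched by symbol for 4 of the 6 members, and their hairpin coordinates were those of the GENCODE annotation in all 4. The 5′ arms are shown first because their shared letters define the family and their few differences decide whether a read can be placed at 1 locus. Capitals mark the seed.
miR-30a-5p (Mir30a, chr1:23272274-23272295, plus strand): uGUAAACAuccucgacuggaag
miR-30e-5p (Mir30e, chr4:120772660-120772681, minus strand): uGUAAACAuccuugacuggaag
miR-30c-5p (Mir30c-1, chr4:120769584-120769606, minus strand, and Mir30c-2, chr1:23291714-23291736, plus strand): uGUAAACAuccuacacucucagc

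The 4 loci thus gave 3 distinct 5′ arms with 1 seed. Counted from the 5′ end, miR-30a-5p and miR-30e-5p differed at 1 of 22 bases, C13U, and shared their first 12. miR-30c-5p differed from miR-30a-5p at 5 of 22 bases, all beyond base 12 (C13A, G14C, G18C, G19U and A20C). The miR-30c-5p arms of Mir30c-1 and Mir30c-2 were identical over all 23 bases. Among 1738 mature mouse sequences in the RefSeq table, 5 (0.288%) held this seed at bases 2 to 8. The table has no entry for Mir30b or Mir30d, so carriers of the seed may be missing from this count. Outside the members, the table held the seed only in miR-384-5p of the X-linked Mir384, which shared 8 starting bases with miR-30e-5p.
miR-384-5p (Mir384, chrX:105344332-105344354, minus strand): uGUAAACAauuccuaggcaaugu

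The 3′ arms are shown because the deposited counts are per hairpin and add both arms, and because these arms are what separates the miR-30c loci. They fell into a pair of seeds, different from the 5′ seed, again in capitals.
miR-30a-3p (Mir30a, chr1:23272315-23272336, plus strand): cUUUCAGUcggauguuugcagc
miR-30e-3p (Mir30e, chr4:120772618-120772639, minus strand): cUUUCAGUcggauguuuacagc
miR-30c-1-3p (Mir30c-1, chr4:120769546-120769567, minus strand): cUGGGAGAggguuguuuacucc
miR-30c-2-3p (Mir30c-2, chr1:23291754-23291775, plus strand): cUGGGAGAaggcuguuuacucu

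miR-30a-3p and miR-30e-3p shared a seed and differed at 1 base, G18A. miR-30c-1-3p and miR-30c-2-3p shared the other seed and differed at 3 of 22 bases, G9A, U12C and C22U. The seed of miR-30a-3p and miR-30e-3p was found in no further mature sequence of the table, and that of the miR-30c 3′ arms in 1 further gene, Mir6958.

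The hairpins of the miR-30c genes show how far the loci coincide. Capitals here mark the 5′ and the 3′ mature arm.
Mir30c-1 hairpin: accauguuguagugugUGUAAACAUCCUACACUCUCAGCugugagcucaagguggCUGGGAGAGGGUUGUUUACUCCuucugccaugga
Mir30c-2 hairpin: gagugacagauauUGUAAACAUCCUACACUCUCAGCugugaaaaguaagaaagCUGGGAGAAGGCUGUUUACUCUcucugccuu

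The longest run of identical bases in both miR-30c hairpins was 28, and it held the whole 5′ arm. The libraries were prepared for RNA under 30 nt. Between Mir30a and Mir30e the longest common run was 18 bases, and between either of them and either miR-30c hairpin it was 12. The tables set multi-mapped reads apart from every gene, so reads of miR-30c-5p that fit both loci are missing from Mir30c-1 and Mir30c-2 by an amount that the tables do not give. Multi-mapped reads of any kind were 44.0% of all 10056843 reads in replicate 1 and 52.1% of all 8189059 reads in replicate 2.

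The libraries held 2743657 and 2211254 own-strand counts over all microRNA genes in replicates 1 and 2, and levels are given as CPM (counts-per-million of these). A small RNA read covers a mature arm whole, so CPM was not divided by hairpin length, which ran from 71 to 96 bases among the members. Of the markers of the labelled tissue, Mir206 alone was high. The 9 skeletal muscle microRNA genes listed held 6.95% and 6.92% of counts in replicates 1 and 2. Among these reads, which were placed at a single gene, 98.2% and 98.1% were of Mir206. Each of the 9 was detected, but only 7 had at least 10 CPM in each replicate. Mir133b, Mir208b and Mir499 averaged 26.2, 84.3 and 277 CPM, against 68099 CPM for Mir206. Detection alone does not mark the tissue, since all 5 epithelial and all 4 leukocyte genes listed were detected too. Of other cell types, the endothelial Mir126a held 9.81% and 8.04%, the smooth muscle list of 2 genes 3.67% and 3.49%, the leukocyte list of 4 genes 0.0977% and 0.105%, the erythroid list of 2 genes 0.0384% and 0.0571%, and the liver microRNA gene Mir122 0.0108% and 0.0132%. The epithelial list of 5 genes held 0.00128% and 0.00244%. Of 6 neuronal genes, 5 had no count and Mir9-3 had 1 count in replicate 2. Multi-mapped reads are left out of these lists too. Gene copies named alike, such as those of Mir124a, Mir9, Mir1a and Mir133a, may share a mature sequence and be counted too low. Their low or missing counts do not show that the microRNA is low or absent, and the list shares do not rank cell types. Whether Mir133b, Mir208b and Mir499 lose reads to multi-mapping was not tested. In whole muscle, fewer cells of a type and less RNA per cell cannot be told apart, and no level can be placed in a cell type.

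Together the miR-30 genes held 63403 counts in replicate 1, or 2.31% of assigned counts (95% Wilson interval 2.29 to 2.33), and 48106 counts in replicate 2, or 2.18% (2.16 to 2.19). The mean was 2.24% ± 0.0957 (SD, n = 2). All 6 genes were above 10 CPM in both libraries, a level reached by 258 of the 2202 genes (11.7%). Nearly the whole family total came from Mir30d, Mir30a and Mir30e, which held 98.7% ± 0.131 of it, against 1.35% ± 0.131 for Mir30b, Mir30c-2 and Mir30c-1 together (SD, n = 2). For the miR-30c genes these counts leave out the multi-mapped reads of the shared 5′ arm.

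Mir30d was the leading member. Its hairpin (ENSMUSG00000065437.1, chromosome 15, 68341208 to 68341289, minus strand) lies in an exon of the long non-coding RNA gene Gm20732. It had 27527 counts in replicate 1 and 22342 in replicate 2, which is 10033 and 10104 CPM, a mean of 10068 CPM ± 50.1 (SD, n = 2). The Wilson intervals of the level, 9916 to 10152 CPM and 9973 to 10236 CPM, overlap. It stood at place 24 of all genes in each library.

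Mir30a followed at place 26 in each library. Its hairpin, which has long served as the backbone for artificial short hairpin RNAs, overlapped no other gene of the annotation (ENSMUSG00000065405.3, chromosome 1, 23272269 to 23272339, plus strand). It had 24622 and 18329 counts in replicates 1 and 2, which is 8974 and 8289 CPM, a mean of 8632 CPM ± 485. Mir30d was 1.12 times Mir30a in replicate 1 (95% exact binomial interval 1.10 to 1.14) and 1.22 times in replicate 2 (1.20 to 1.24). The order was the same in both libraries, while these ratio intervals do not overlap.

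Mir30e came next, with its hairpin in an intron of Nfyc on the same strand (ENSMUSG00000065409.1, chromosome 4, 120772606 to 120772697, minus strand). Nfyc encodes a subunit of the CCAAT-binding transcription factor NF-Y. Mir30e had 10458 and 6742 counts in replicates 1 and 2, which is 3812 and 3049 CPM, a mean of 3430 CPM ± 539. Mir30a was 2.35 times Mir30e in replicate 1 (interval 2.30 to 2.41) and 2.72 times in replicate 2 (2.64 to 2.80).

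The other members had far lower counts. Mir30b (ENSMUSG00000065476.2, chromosome 15, 68337415 to 68337510, minus strand) overlapped the non-coding gene Gm26621 by 16 of its 96 bases. It had 393 and 296 counts in replicates 1 and 2, which is 143 and 134 CPM, a mean of 139 CPM ± 6.63. Mir30e was 26.6 and 22.8 times Mir30b in the libraries, the widest step between neighbours in the order. This step is between placed reads, and reads lost from Mir30b to multi-mapping could not be checked without its sequence.

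Mir30c-2 lies in an exon of the non-coding gene Gm27028 (ENSMUSG00000065567.1, chromosome 1, 23291701 to 23291784, plus strand). It had 283 and 277 counts in replicates 1 and 2, which is 103 and 125 CPM, a mean of 114 CPM ± 15.6. Mir30b was 1.39 times Mir30c-2 in replicate 1 (interval 1.19 to 1.62) and 1.07 times in replicate 2 (0.904 to 1.26), so these neighbours were not separated in replicate 2. Mir30c-1, like Mir30e in an intron of Nfyc (ENSMUSG00000065490.1, chromosome 4, 120769534 to 120769622, minus strand), was the lowest, with 120 counts in each library, which is 43.7 and 54.3 CPM, a mean of 49.0 CPM ± 7.45. Mir30c-2 was 2.36 times Mir30c-1 in replicate 1 (interval 1.90 to 2.94) and 2.31 times in replicate 2 (1.86 to 2.88). The counts of both miR-30c genes leave out reads of the shared 5′ arm, so their places rank placed reads and not the mature microRNA.

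**Figure D1:**
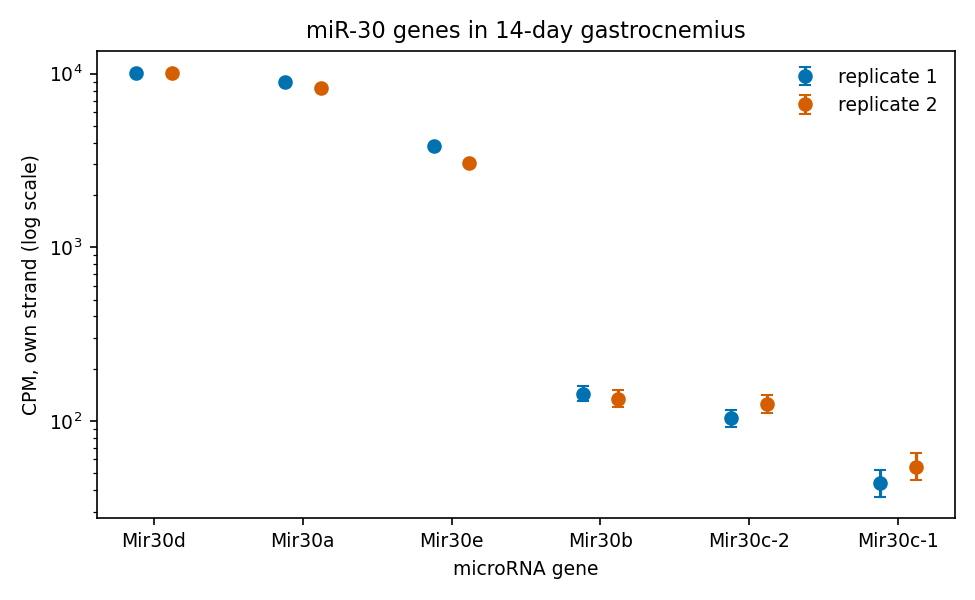
Own-strand CPM on a log axis for the 6 miR-30 genes, ordered by mean, with 1 point per library and its 95% Wilson interval, which covers counting error only. Mir30d, Mir30a and Mir30e lie between 3049 and 10104 CPM and the other members between 43.7 and 143 CPM, in the same order in both libraries. The points of Mir30c-1 and Mir30c-2 leave out reads of their shared 5′ arm.

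Set by genomic pair, the family split 45.5% ± 2.14 for Mir30d with Mir30b on chromosome 15, 39.0% ± 0.427 for Mir30a with Mir30c-2 on chromosome 1 and 15.5% ± 1.71 for Mir30e with Mir30c-1 on chromosome 4 (SD, n = 2). The hairpins of a pair were 3.70 kb apart on chromosome 15, 19.4 kb on chromosome 1 and 2.98 kb on chromosome 4. In every pair the hairpin nearer the 5′ end along the strand had the higher count. In the pairs on chromosomes 1 and 4 the other hairpin is a miR-30c gene, whose counts leave out reads of the shared 5′ arm. For Mir30d and Mir30b no sequence was at hand, so whether they lose multi-mapped reads was not checked. In every pair the direction holds for the placed reads only.

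Mir30d was 70.0 times Mir30b in replicate 1 (95% exact binomial interval 63.4 to 77.6) and 75.5 times in replicate 2 (67.3 to 84.9), intervals that overlap. Mir30a was 87.0 times Mir30c-2 in replicate 1 (77.4 to 98.2) and 66.2 times in replicate 2 (58.8 to 74.8), intervals that do not. Mir30e was 87.2 times Mir30c-1 in replicate 1 (72.8 to 105) and 56.2 times in replicate 2 (46.9 to 67.9), which do not overlap either. These ratios do not depend on how the libraries are scaled. The means over libraries were 72.8 ± 3.84, 76.6 ± 14.7 and 71.7 ± 21.9 (SD, n = 2). Mir30d over Mir30b was the lowest of the 3 ratios in replicate 1 and the highest in replicate 2. The close means therefore do not show that the pairs are alike. The ratios with a miR-30c gene below the line rest on counts that leave out reads of the shared 5′ arm, and they do not give the ratio of the mature microRNAs. Mir30d over Mir30b is likewise a ratio of placed reads, and without sequences of these genes a loss of multi-mapped reads was not checked. A ratio of pair members compares hairpin genes, not transcripts.

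**Figure D2:**
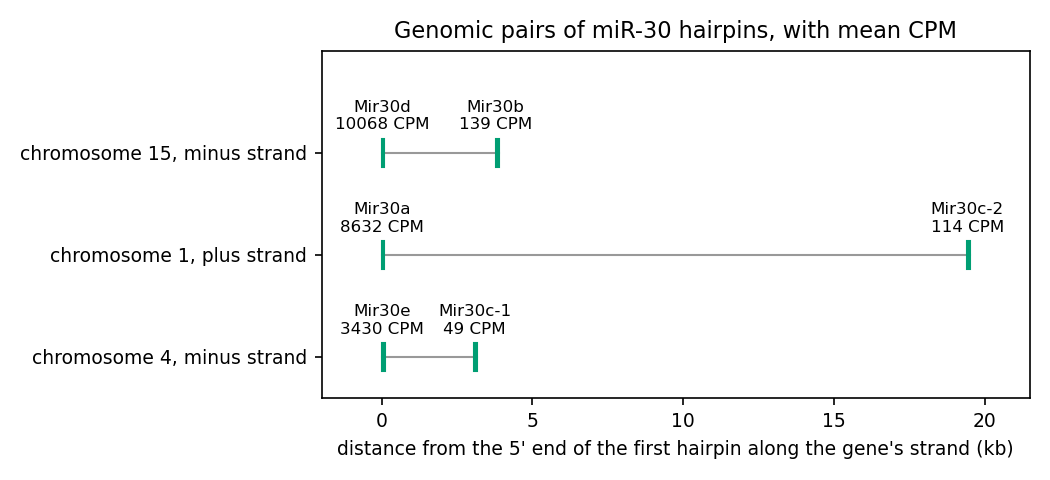
Map of the 3 genomic pairs drawn to scale, with the distance in kb along the strand from the 5′ end of the first hairpin and the mean CPM of each gene over 2 libraries above its hairpin (green bar). The first hairpin has the higher count in each pair, 10068 CPM for Mir30d, 8632 CPM for Mir30a and 3430 CPM for Mir30e. Values of Mir30c-1 and Mir30c-2 leave out reads of their shared 5′ arm.

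**Figure D3:**
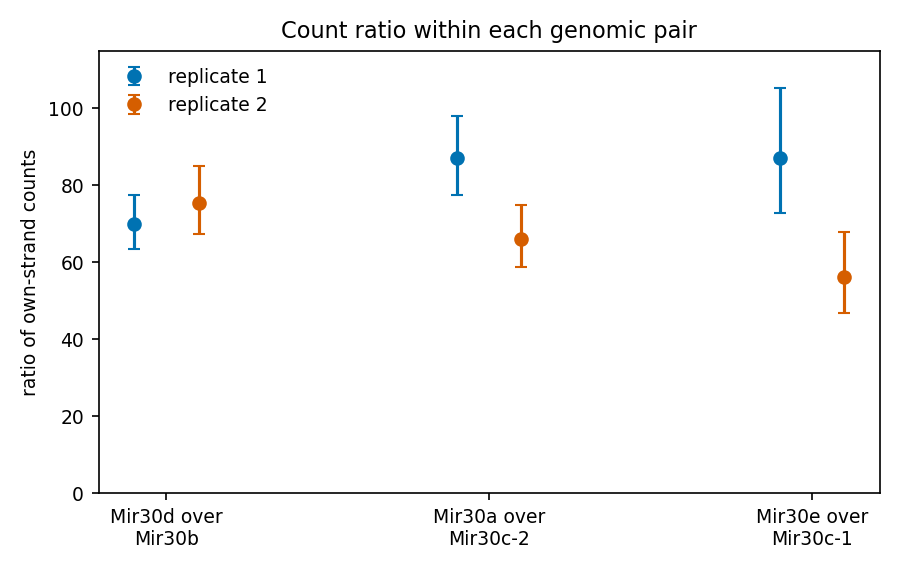
Ratio of own-strand counts of the high over the low gene of each pair, with 1 point per library and its 95% exact binomial interval, on a linear axis from 0. The ratios lie between 56.2 and 87.2, and the intervals of the libraries overlap for Mir30d over Mir30b alone.

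Mir30e is the member whose count depends on strand. The gene Mir30f is annotated over exactly the same 92 bases on the opposite strand. Its mature sequence is shown because it holds the letters of the family seed shifted by a base. They start at base 1, so its bases 2 to 8, in capitals, are another seed. It lies opposite miR-30e-3p, over 19 shared positions.
miR-30f (Mir30f, chr4:120772621-120772642, plus strand): gUAAACAUccgacugaaagcuc
Mir30e hairpin, with both mature arms in capitals: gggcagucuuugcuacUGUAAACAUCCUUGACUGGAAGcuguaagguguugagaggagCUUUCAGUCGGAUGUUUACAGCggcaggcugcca

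On its own strand Mir30f had 0 counts in both libraries. A count of 0 in a library allows a level of up to about 3 counts, 1.09 CPM in replicate 1 or 1.36 CPM in replicate 2. All 10458 and 6742 reads over these bases in replicates 1 and 2 were on the Mir30e strand. In the deposited column that counts reads on either strand, Mir30e and Mir30f were both at 0, because a read under genes on both strands is left as ambiguous there. Mir30e made up 1.62% of the 647240 ambiguous reads of that column in replicate 1 and 1.33% of the 508345 in replicate 2. It was among 34 and 35 genes that lost reads in this way in the libraries. The other 5 members had the same counts in both columns and 0 reads on the opposite strand. Mir384, the further carrier of the family seed in the RefSeq table, had 2 counts in replicate 1 and 1 in replicate 2, under the 3 counts that a count of 0 allows.

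Other families were fixed for comparison, as a description with no test, and the miR-30 value lay inside their range. The leading gene held 44.9% ± 2.14 of the counts in the miR-30 family, 35.1% ± 0.0585 in let-7 (Mirlet7i), 33.3% ± 2.9 in miR-181 (Mir181b-2), 64.1% ± 5.13 in miR-29 (Mir29a), 67.8% ± 3.66 in the family of Mir148a, Mir148b and Mir152 (Mir152), 95.1% ± 0.821 in that of Mir103-1, Mir103-2 and Mir107 (Mir107) and 98.8% ± 0.0524 in miR-26 (Mir26b). The share of all assigned counts was 2.24% ± 0.0957 for miR-30, between 14.3% ± 1.24 for let-7 and 1.85% ± 0.143 for miR-26. Several of these families also hold loci with a common mature sequence, so their values carry the same limit. The shares are of placed reads and do not show that the families differ in composition.

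The genes nearest in level to each member, by the distance of log2(CPM + 1) over the 2 libraries, were given by a rule. Mir541 of the imprinted Dlk1-Dio3 cluster, at 9237 and 9671 CPM in replicates 1 and 2, was nearest to both Mir30d (distance 0.14) and Mir30a (0.23). Mir130a was nearest to Mir30e (0.12) and Mir376b, of the same imprinted cluster as Mir541, to Mir30b (0.04). Mir122, the leading microRNA of hepatocytes, was nearest to Mir30c-2 (0.10), at 108 and 132 CPM, and Mir1843a to Mir30c-1 (0.05). Over 2 libraries such nearness is a matter of level only.

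The replicates were then compared over the 258 genes that reached 10 CPM in each library, with library sizes scaled by the trimmed mean of M-values (TMM). Each gene's counts were tested by a two-sided exact binomial test with Benjamini-Hochberg adjustment over all 258 genes. The test compares these 2 libraries, not conditions, and covers counting error only. Of the 6 miR-30 genes, all of which entered, 3 passed, all lower in replicate 2. Over all genes tested 50.8% passed, 31.8% lower and 19.0% higher in replicate 2, so 3 of 6 is close to the background. This split moves with the scaling. Where total counts set the library sizes, 66 genes were lower and 67 higher in replicate 2, and among the members Mir30e and Mir30a were lower and Mir30c-2 higher. None of the 6 differed 2-fold, against 1.16% of all genes.

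Mir30e fell the most of the members, at 3049 CPM in replicate 2 against 3812 CPM in replicate 1. Its log2 ratio (replicate 2 over replicate 1, from TMM-scaled CPM with 1 added) was −0.37 (exact binomial test, adjusted p = 7.73e-60), the 31st lowest of 258 genes. Mir30a was at −0.16 (adjusted p = 1.56e-29, same exact test), place 89 from the lowest. Mir30d was at −0.04 (adjusted p = 0.0114, same exact test), next to the median of all genes, also −0.04. With library sizes from total counts its ratio was 0.01 (adjusted p = 0.546, same exact test), so Mir30d has no stable direction.

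The 3 low genes did not pass. Mir30b was at −0.14 (adjusted p = 0.305), Mir30c-2 at 0.23 (adjusted p = 0.100) and Mir30c-1 at 0.26 (adjusted p = 0.266), all by the exact binomial test. With total counts as library sizes Mir30c-2 passed, with a log2 ratio of 0.28 (adjusted p = 0.0428, exact binomial test). The median over the members was −0.09, against −0.04 over all genes tested. When the spread between the libraries was estimated over all genes, a biological coefficient of variation of 12.8%, edgeR's exact test called none of the 6 and 3 of the 258 genes, with 15 at an unadjusted p under 0.05. The adjusted p was 0.953 for Mir30e and 0.995 for each other member in that test. That spread was estimated from the same 2 libraries that the test compares, 1 against 1, so a gene that does not pass it is not shown to be alike in both. The differences of Mir30e and Mir30a are larger than counting error if reads are taken as independent. The design cannot set these differences against a spread measured in other samples.

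**Figure D4:**
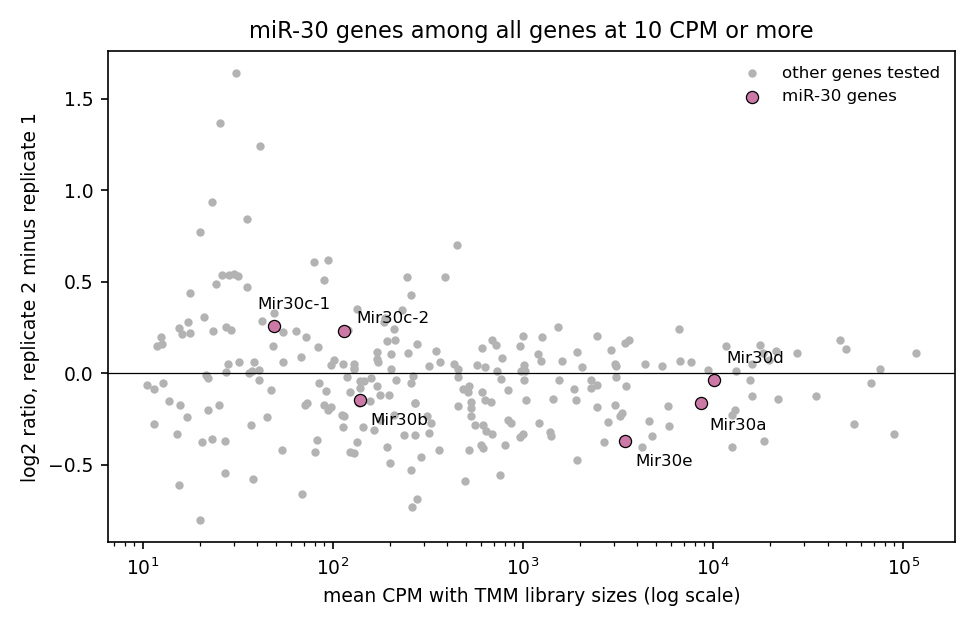
Log2 ratio of each of the 258 genes, replicate 2 minus replicate 1, against its mean CPM with TMM library sizes on a log axis, with the miR-30 genes as large points. The miR-30 genes lie between −0.37 (Mir30e) and 0.26 (Mir30c-1), inside the range of the other genes tested.

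Within the family the composition moved by a few percentage points. Mir30d held 46.4% of the family in replicate 2 and 43.4% in replicate 1, and Mir30e 14.0% and 16.5%. The share of Mir30a moved less, at 38.1% in replicate 2 and 38.8% in replicate 1, although its level was lower in replicate 2 (8289 against 8974 CPM). Of the 15 ratios that the 6 genes form, 6 had intervals that did not overlap between the libraries, and each of those involves Mir30a or Mir30e. Among the values that also moved between the libraries were the share of multi-mapped reads (52.1% in replicate 2, 44.0% in replicate 1), the endothelial Mir126a (8.04% and 9.81% of counts) and the erythroid list (0.0571% and 0.0384%). Their part in the lower Mir30e and Mir30a of replicate 2 was not tested.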

How the data were processed

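Small RNA libraries, 1 per replicate, were counted per hairpin gene. The deposited values were whole-number read counts, not normalized, in 3 columns (either strand, own strand, opposite strand). Per the notes deposited with the tables, they were made on mm10 with the M21 annotation. The aligner, counter and trimming are not given in the sources used here. The 4 lines that name no gene (72.7% and 73.0% of reads in replicates 1 and 2) were left out of all totals. The own-strand column was used, with either strand as an alternative. All 2202 identifiers were found in GENCODE vM21.

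CPM, shares, intervals and ratios were computed from the deposited counts (Python 3.11.15, scipy 1.17.1). Intervals and the 3-count limit cover counting error only, since PCR reads are not independent molecules. The exact binomial test was that of R 4.3.3. TMM sizes and the alternative exact test came from edgeR 4.0.16, and DESeq2 1.42.0 gave alternative size factors. A chi-square test of the counts gave 77.8 per degree of freedom (257 in all), so the libraries were kept as 2 samples. The fit was tested on simulated data. Named genes were the members, genes sharing the seed or the Mir30e bases, host genes and the nearest gene in level. The family was picked for description, and the lists were chosen, with earlier results of these data known, while its 6 genes follow from their names.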

Additional observations from a re-analysis of the deposited data

How the results depend on the processing

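The family share was 2.48% with either strand counted, 2.54% without Mir378a, the most abundant gene, and 0.609% of all reads, a denominator chosen after seeing the data. Left to a single replicate, the share was 2.18% to 2.31%, and the ratios were 70.0 to 75.5 for Mir30d over Mir30b, 66.2 to 87.0 for Mir30a over Mir30c-2 and 56.2 to 87.2 for Mir30e over Mir30c-1. With either strand counted the last ratio was 0, because Mir30e then has no count, and the other ratios did not move. The order of the other 5 members was the same with either strand counted, where scaling by fewer assigned counts raises their CPM.

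The count of miR-30 genes called between the replicates was 3 with DESeq2 size factors, with no filter and at 100 CPM. It was also 3 with library sizes from total counts, but with Mir30c-2 in and Mir30d out. It was 2 of the 5 tested with either strand counted, and 0 by edgeR's exact test. That test called 3 of all genes. At least 2-fold differences over all genes numbered 10 with no filter and 0 at 100 CPM by the binomial test, where 123 genes were at an unadjusted p under 0.05; the miR-30 count was 0 in each. Mir30d turned to 0.010 with library sizes from total counts, and with TMM sizes from the tested genes only, added after seeing the data, it stood at −0.01 and 2 members passed. The other members kept their sign under every alternative that gave them a value (Mir30e has none with either strand counted and Mir30c-1 none at 100 CPM), Mir30e between −0.38 and −0.32 and Mir30a between −0.17 and −0.11.

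No paired analysis was possible because the series has 1 group. Leaving out a replicate leaves no comparison between replicates, so the calls have no such alternative.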
